A study of Rattus norvegicus with 29 samples.

Results

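The 150 most abundant transcripts of control rat renal proximal tubule epithelial cells are described here across 4 compounds and 2 times. They were chosen from the control libraries alone: 294 of 28420 transcripts averaged over 500 TPM in the 5 control libraries, and the 150 highest were kept, which is 0.528% of all transcripts. TPM is the authors' estimate of abundance per length of transcript, scaled so that each library sums to the same total. Members are called by their rank in that control mean, with rank 1 the most abundant. Primary rat cells were exposed to acetaminophen, gentamicin, TCDD (the dioxin that binds the aryl hydrocarbon receptor) or trichloroethylene, or were kept as controls, for 24 h or 6 h. There were 3 libraries in every group but the control at 6 h, which had 2 (replicates 2 and 3), 29 libraries in all. The sources used here give no dose, vehicle, strain, sex or age. Whether replicates are separate cultures is not stated in the labels, and every p-value therefore measures the spread between these libraries, which may be technical.

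The proximal tubule reabsorbs most of what the glomerulus filters, a task that rests on dense mitochondria and on membrane transporters. In cultured cells of most kinds a small set of transcripts, mainly for ribosomal proteins, respiratory chain subunits, the cytoskeleton and iron storage, supplies a large part of the messenger RNA, so a shift in a few of them moves the proportions of all the others. Acetaminophen is an analgesic whose reactive metabolite depletes glutathione, gentamicin is an aminoglycoside antibiotic that accumulates in these cells, and trichloroethylene is a solvent whose glutathione conjugate is activated in the kidney. The files give transcript identifiers without gene names, so no member is assigned to a gene or a role, and the labelled cell type was not checked against its markers. The members are described by rank, by length and, for 4 of them, by identifier.

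The libraries held 8243698 to 11446612 estimated counts, and the rarest member in any library still had 69. All 150 members passed the filter on low counts that left 15990 transcripts for testing, so none was lost to it. Changes are log2 differences ± SE from 1 edgeR quasi-likelihood fit over all 29 libraries, and a change counts as called where its Benjamini-Hochberg adjusted p, over all 15990, was under 0.05. The fit scaled counts by library and not by effective length, so its changes can differ in size from those in TPM where fragment lengths differ. The control levels that chose the members also enter each comparison with controls. In bulk RNA, fewer cells that make a transcript and less of it per cell cannot be told apart.

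In the controls the levels fell off quickly with rank. Rank 1, a transcript of 1545 bases, averaged 13226 ± 1919.7 TPM (SD, n = 5), and rank 2, of 784 bases, averaged 9636 ± 2488 TPM. Ranks 3 to 6 lay close together, between 6373 TPM for rank 3 and 6157 TPM for rank 6, and their order is within their spread. Ranks 7 to 10 averaged 5350.5, 5292, 5238 and 4907 TPM. Rank 7 was the steadiest of the 10, with a coefficient of variation of 2.52%, and rank 3 the least steady at 70.3%. At the other end, the last but 1 averaged 1072 TPM and rank 150 averaged 1066 TPM. The transcript of rank 151 has the same length as rank 150, 525 bases, and the same values in the 5 control libraries, so the end of the list falls on a tie that was broken by identifier. Rank 152 averaged 1065 TPM.

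The list is made of short transcripts. The median length was 622 bases, from 165 to 5825 bases, against 2019 bases over all tested transcripts. 47 members were shorter than 500 bases, which is 31.3% of the members against 4.11% of the tested transcripts. Another 63 measured 500 to under 1000 bases and 40 measured 1000 bases or more. The 10 members under 300 bases were scaled by effective lengths of only 25.1 to 98.9 bases, so small differences in fragment length move their TPM more than that of long transcripts. By reads rather than by TPM the list differs: 68 members, 45.3%, are also among the 150 transcripts with the highest CPM. In 84 members, 56%, at least 1 library had a count that was not whole, which means that reads were divided between similar transcripts, against 40.4% of the tested transcripts. Values of those members can hold reads of a near-identical copy.

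In the 5 controls the members together held 36.4 ± 0.698% of the TPM (SD) but 17.2 ± 0.506% of the counts. Rank 1 alone held 1.32% of the TPM, the 10 highest held 6.87 ± 0.816% and the 50 highest held 19.8 ± 0.569%. The SD of the share was smaller for all 150 than for the 10 highest, and smallest of the 3 for the 50 highest. These SDs belong to shares of very different size, so they do not order the 3 lists by steadiness.

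Exposure for 24 h moved that total in both directions. Among the 24 h groups the share was largest in TCDD at 24 h, with 43.0, 47.1 and 39.9% in the 3 libraries, and smallest in gentamicin at 24 h, with 26.3, 25.1 and 28.4%. Control libraries at 24 h held 36.1, 35.4 and 37.3%. All 3 TCDD libraries lay above and all 3 gentamicin libraries below every control library of that time. Acetaminophen at 24 h had 33.8, 35.5 and 32.1%, and its highest library lay just above the lowest control. Trichloroethylene at 24 h had 38.4, 37.7 and 37.2%, and its lowest library lay just below the highest control. By counts the order was the same at both ends, with 22.6% in TCDD and 11.8% in gentamicin against 17.1% in controls. These shares are sums over a chosen list and were given no test. Fragment length differed too, at 234 ± 3.91 bases in TCDD and 262 ± 2.65 bases in gentamicin against 279 ± 9.6 bases in controls at 24 h (SD, n = 3 each). In acetaminophen it was 254 ± 21 bases, from 233 to 275 bases, and in trichloroethylene 255 ± 5.9 bases. The part of fragment length in the shares was not tested.

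**Figure D1:**
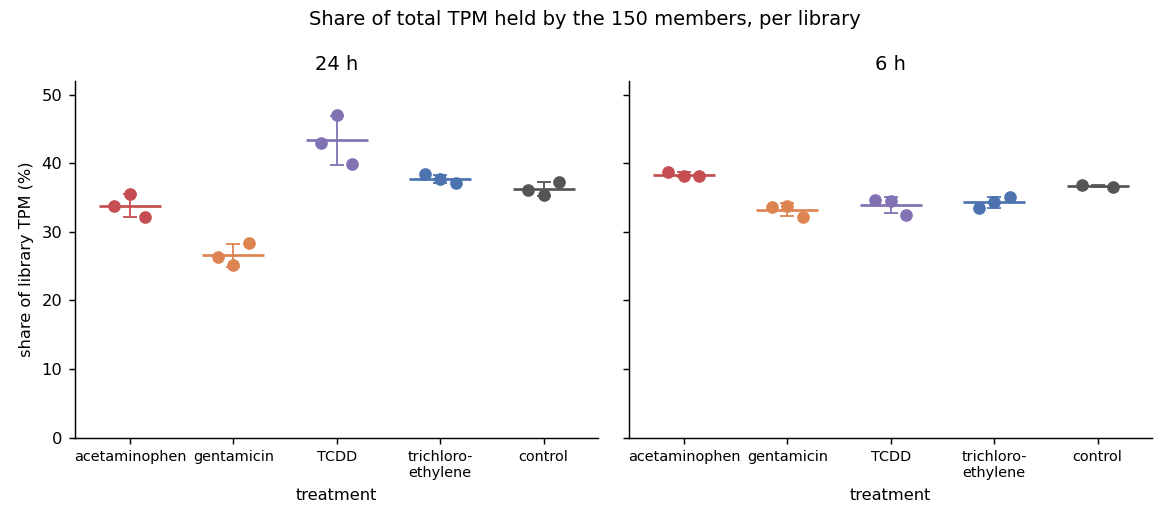
Share of all TPM held by the 150 members in each library, in percent, by compound with controls last in each panel, 24 h and 6 h apart. Points are libraries, horizontal lines are group means and error bars are SD; TCDD at 24 h averaged 43.3 ± 3.64% and gentamicin at 24 h 26.6 ± 1.67%, against 36.2 ± 0.923% in controls at 24 h (SD, n = 3 each).

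At 6 h the shares lay closer together. Acetaminophen had 38.8, 38.1 and 38.2%, all above the 36.8 and 36.6% of the 2 controls. Gentamicin had 33.7, 33.8 and 32.1%, TCDD had 34.7, 34.5 and 32.5%, and trichloroethylene had 33.5, 34.3 and 35.1%. Every library of these 3 compounds lay below both controls. At 6 h TCDD was therefore on the other side of the controls from where it was at 24 h.

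The fall in the gentamicin share at 24 h was deepest at the top of the list. The 10 highest members held 2.54 ± 0.146% of the TPM in gentamicin, 6.46% in acetaminophen, 5.56% in TCDD and 6.34% in trichloroethylene, against 7.38 ± 0.595% in controls at 24 h (n = 3 each). In TCDD the 10 highest thus held less than in controls while all 150 held more. The difference lay further down the list, where the TCDD median log2 change was 1.07 for ranks 16 to 50, 1.11 for the next 50 and 0.84 for the last 50, against 0.55 for ranks 1 to 15.

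Membership of the 150 highest turned over with exposure. When each group was ranked by its own mean TPM at 24 h, 112 members stayed among the highest 150 in gentamicin, 117 in TCDD, 128 in acetaminophen and 131 in trichloroethylene, against 145 in controls. At 6 h the numbers were 136 in gentamicin, 143 in TCDD, 134 in acetaminophen and 141 in trichloroethylene, against 141 in controls. Since the controls chose the list, their own figures are high by construction. The most abundant transcript of gentamicin at 24 h was no member at all. It measures 806 bases and had 12406 ± 1054 TPM in gentamicin and 2962 ± 713 TPM in TCDD, against 213 ± 27.2 TPM in controls at 24 h (SD, n = 3 each). The 38 transcripts that entered the highest 150 in gentamicin together held 9.23% of its TPM. In TCDD at 24 h rank 4 took first place, with 11351 ± 492 TPM. The deepest drops in place were rank 91 in TCDD at 24 h, at place 2219 with 59.3 TPM, and rank 128 in acetaminophen at 24 h, at place 1927 with 87.1 TPM.

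In each group at 24 h the median coefficient of variation between libraries was lower over the members than over all tested transcripts. For members it was 12.8% in TCDD at 24 h, 4.76% in trichloroethylene, 11.1% in gentamicin and 12.9% in acetaminophen, with 10.7% in controls at 24 h. Over all tested transcripts the medians in those groups were 22, 10.6, 14.6 and 14.6%, with 12.9% in controls. More reads per transcript give a smaller counting error, and how much of the gap that makes was not tested. At 6 h the members' medians were 3.33% in acetaminophen, 7.78% in gentamicin, 10.5% in TCDD and 7.75% in trichloroethylene, with 2.68% in the 2 controls. Over the 5 controls, which chose the members, the median was 14.1%. There 45 members stayed under 10% and 9 exceeded 30%. The steadiest was rank 88, of 1441 bases, at 2.44%.

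Across all 29 libraries the highest TPM of a member was 3.07 times the lowest at the median. For 5 members the ratio was under 2 and for 13 it was over 10. Rank 127, of 1399 bases, kept within 1206 to 2162 TPM, a ratio of 1.79. Rank 3, of 348 bases, ran from 184 to 13319.9 TPM, a ratio of 72.5.

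TCDD at 24 h raised most of the list. Of the 150 members 108 were higher and 30 lower than in controls, 92% called, against 66.9% of all tested transcripts (33.9% higher and 33% lower). Changes of more than 2-fold were called in 75 members upward and 13 downward, against 33.6% of all tested transcripts in either direction. The median log2 change was 1.00 over the members and 0.02 over all tested transcripts, and single members ran from -4.66 to 2.30. When the list was instead chosen on the 6 h controls alone, which are no part of the comparison at 24 h, 90.7% were called. That list, also used for the other compounds below, shares 141 transcripts with the main list. A similar percent therefore follows largely from the overlap and is no separate check. On log2(TPM + 1) with limma, 87 members were higher and 42 lower with a median of 0.45, and all tested transcripts shifted by -0.27. With fragment length as a covariate 56 were higher and 30 lower. Fragment length differed between these groups without overlap, so its part cannot be told apart from that of the compound here.

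The largest rises with TCDD at 24 h were in ranks 59, 73 and 74. Rank 59, of 503 bases, had 6041, 7196 and 4929.5 TPM in TCDD, against 1457, 1675 and 2485 TPM in controls (2.30 ± 0.36, edgeR adjusted p = 9.6e-06). Rank 74, of 504 bases, had 4812, 5867 and 4276 TPM in TCDD, against 1421, 1522 and 2189 TPM in controls (2.15 ± 0.29, edgeR adjusted p = 1.2e-06). In both members every TCDD library lay above every control. Rank 73, of 503 bases, had 4479, 6380.3 and 3668 TPM in TCDD, against 536, 1758 and 2672 TPM in controls (2.15 ± 0.58, edgeR adjusted p = 0.0027). Its controls spread more widely than those of any other member at 24 h, with a coefficient of variation of 64.7%, and without control replicate 3 its change was 2.77 with TCDD and 1.99 with acetaminophen. With the fragment length covariate ranks 59 and 73 were no longer called.

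The 3 largest falls with TCDD at 24 h were in ranks 3, 91 and 5. Rank 5, of 684 bases, had 265, 356 and 331 TPM in TCDD, against 7883, 6967 and 6383 TPM in controls (-3.95 ± 0.13, edgeR adjusted p = 1.7e-17). The groups were far apart, and rank 5 stood at place 386 in TCDD. Among the other high ranks, rank 4 of 1389 bases rose, with 10812, 11465 and 11777 TPM in TCDD, against 5935, 6293 and 7027 TPM in controls (1.24 ± 0.10, edgeR adjusted p = 7.1e-11). Rank 7, of 357 bases, rose as well, with 9037, 10793 and 8390.3 TPM in TCDD, against 5437, 5182 and 5275 TPM in controls (1.51 ± 0.21, edgeR adjusted p = 1.1e-06). In TPM the rise of rank 7 was smaller than in the edgeR fit, which does not scale by effective length. Ranks 2 and 6 fell, by 0.79 ± 0.11 and 0.93 ± 0.09 on the log2 scale. The highest ranks therefore divided under TCDD, with 8 of ranks 1 to 15 higher and 7 lower. Rank 8, 1 of the 8 at 0.55 ± 0.21 (edgeR adjusted p = 0.024), had no rise with limma on TPM (-0.00) or with the fragment length covariate (-0.26).

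**Figure D2:**
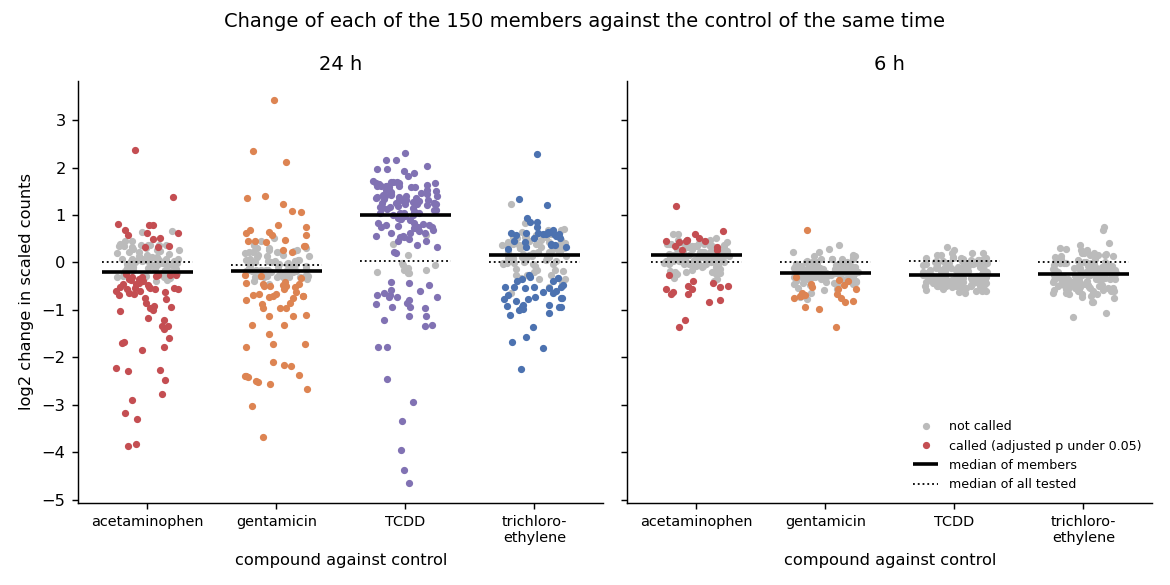
Log2 changes (edgeR) of the 150 members against the control of the same time, by compound, with 24 h left of 6 h. Each point is a member, coloured where called and grey where not, with a solid line at the members' median and a dotted line at that of all tested transcripts; at 24 h the members' median was 1.00 in TCDD, -0.18 in gentamicin, -0.20 in acetaminophen and 0.16 in trichloroethylene.

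Gentamicin at 24 h raised a smaller share of the members than of all tested transcripts. Of the 150, 23 were higher (15.3%) and 50 lower (33.3%). In all 48.7% were called, against 59.6% of all tested transcripts (29.1% higher and 30.5% lower). The share lower was thus near that of all tested transcripts. By more than 2-fold, 8 were higher and 22 lower, against 26.8% of all tested transcripts. The median log2 change was -0.18 over the members and -0.05 over all tested transcripts. Among ranks 1 to 15 none was higher and 9 were lower, with a median of -1.11, while among the last 50 ranks 15 were higher and 11 lower. Chosen on the 6 h controls alone, 44.7% of the list was called. Scaled by total counts, 14 were higher and 76 lower, against 9996 of the 15990 tested transcripts called, and all tested transcripts shifted by -0.27. With limma on TPM 19 were higher and 88 lower, against 9626 of the tested transcripts called. With the fragment length covariate 18 were higher and 78 lower, against 9427. The share called was thus larger among the members than among all tested transcripts with limma and with the covariate. By total counts it was smaller, as in the 48.7% against 59.6% above.

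Ranks 1, 2, 4, 5 and 12 were among the members that fell by more than 2-fold with gentamicin at 24 h. Rank 1 had 6327, 6019 and 5525 TPM in gentamicin, against 14170.1, 16046 and 12555 TPM in controls (-1.11 ± 0.11, edgeR adjusted p = 6.8e-09). Rank 2 had 1695, 1791 and 1420.1 TPM in gentamicin, against 13011, 11486 and 8624 TPM in controls (-2.57 ± 0.11, edgeR adjusted p = 1.1e-15). It stood at place 84 there. Rank 4 had 1126, 1159 and 1076 TPM in gentamicin, against 5935, 6293 and 7027 TPM in controls (-2.37 ± 0.10, edgeR adjusted p = 9.1e-16). Rank 4 thus moved in opposite directions with gentamicin and with TCDD. Rank 5 had 732, 803 and 748 TPM in gentamicin, against 7883, 6967 and 6383 TPM in controls (-3.02 ± 0.13, edgeR adjusted p = 6e-16). Rank 12, of 681 bases, had 682, 836 and 704 TPM in gentamicin, against 6224, 5763 and 4202 TPM in controls (-2.67 ± 0.13, edgeR adjusted p = 6.9e-15). In none of these 5 members did the groups overlap. Rank 6 was lower too, with 1460.1, 1575 and 1110.0 TPM in gentamicin, against 7540.2, 7223 and 6279 TPM in controls.

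Ranks 7, 9 and 10, all shorter than 500 bases, were not called with gentamicin. Rank 7 had 3851, 3474 and 4690.4 TPM in gentamicin, against 5437, 5182 and 5275 TPM in controls, and rank 10 had 4091, 3222 and 4831 TPM in gentamicin, against 4364, 4272 and 5095 TPM in controls. The groups overlapped for rank 10 but not for rank 7. The test scales counts by TMM factors, which were 0.852 to 0.871 in gentamicin against 1.009 to 1.016 in controls, and the TPM values do not carry them. Of the 3 largest rises, ranks 131, 75 and 145, the last is a transcript of 2052 bases near the end of the list. Rank 145 had 4529, 4607 and 4626 TPM in gentamicin, against 1223, 1296 and 1001 TPM in controls (2.12 ± 0.10, edgeR adjusted p = 3.2e-15). It reached place 10 in gentamicin and also rose with TCDD (1.30 ± 0.10), while it fell with acetaminophen (-1.18 ± 0.10).

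Acetaminophen at 24 h lowered 57 members and raised 14, 47.3% called, against 59.4% of all tested transcripts. Lower values were called in 38% of the members and 29.2% of all tested transcripts, and higher values in 9.33% of the members and 30.3% of all. By more than 2-fold, 2 members were higher and 22 lower, against 25.4% of all tested transcripts. The median log2 change was -0.20 over the members and 0.00 over all tested transcripts. The falls were most frequent among members of 1000 bases or more, where 7.5% were higher and 67.5% lower with a median of -0.47. Other tested transcripts of that length had 31.4% higher and 30.5% lower with a median of 0.00. With the fragment length covariate 27 of 47 members under 500 bases were lower, with a median of -0.53. Of those of 500 to under 1000 bases 25 of 63 were lower (-0.32), and of those of 1000 bases or more 26 of 40 (-0.55). Chosen on the 6 h controls alone, 44.7% of the list was called. Scaled by total counts, 29 were higher and 39 lower, against 9643 of the 15990 tested transcripts called, and all tested transcripts shifted by 0.21. With limma on TPM 28 were higher and 51 lower with a shift of 0.12, against 9303 of the tested transcripts called. With the fragment length covariate 6 were higher and 78 lower, against 8750. With the covariate the share called was thus slightly larger among the members than among all tested transcripts. By total counts and with limma it was smaller.

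The deepest falls with acetaminophen at 24 h were in ranks 128, 13 and 106. Rank 128, of 1458 bases, had 87.4, 90.8 and 83.1 TPM in acetaminophen, against 1124, 1163 and 1140.4 TPM in controls (-3.86 ± 0.12, edgeR adjusted p = 3.8e-18). Rank 13, of 1413 bases, had 389, 289 and 643 TPM in acetaminophen, against 6949.6, 5548 and 4036 TPM in controls (-3.82 ± 0.26, edgeR adjusted p = 1.5e-11). Rank 106, of 2688 bases, had 212, 175 and 248 TPM in acetaminophen, against 2133, 1833 and 1599.9 TPM in controls (-3.31 ± 0.14, edgeR adjusted p = 2.9e-16). The groups were apart in each, and rank 13 was among the members that also fell with TCDD (-2.94 ± 0.25), gentamicin (-2.16 ± 0.24) and trichloroethylene (-2.24 ± 0.24), all 4 set against the same controls. Rank 8, of 532 bases, had 1436, 1529 and 1273 TPM in acetaminophen, against 3853, 4416 and 6377 TPM in controls (-1.85 ± 0.21, edgeR adjusted p = 1e-07). The 2 most abundant members were not called, with 15978, 13411 and 19854 TPM in acetaminophen against 14170.1, 16046 and 12555 TPM in controls for rank 1.

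Rises with acetaminophen at 24 h were few, and only ranks 131 and 73 passed 2-fold. Rank 73 had 4735, 5421 and 3288 TPM in acetaminophen, against 536, 1758 and 2672 TPM in controls (1.38 ± 0.57, edgeR adjusted p = 0.042). Rank 37, of 472 bases, had 4252, 5663 and 3192 TPM in acetaminophen, against 1969.8, 2419.5 and 3039 TPM in controls (0.80 ± 0.30, edgeR adjusted p = 0.026). In both the groups did not overlap, and in both the call was lost with the fragment length covariate. The call was also lost without acetaminophen replicate 2 or control replicate 1 or 2. The changes were then 0.44, 0.63 and 0.76 for rank 37 and 1.11, 0.94 and 1.38 for rank 73. For rank 73 it was lost without acetaminophen replicate 1 too (1.37). Acetaminophen replicates 1, 2 and 3 had fragments of 254, 233 and 275 bases. Both members were highest in replicate 2 and lowest in replicate 3.

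Trichloroethylene at 24 h split the members nearly evenly, with 29 higher and 38 lower, 44.7% called, against 40.7% of all tested transcripts (20.7% higher and 19.9% lower). Changes over 2-fold went upward in 3 members and downward in 8, against 9.94% of all tested transcripts in either direction. The members' median log2 change was 0.16, with 0.01 over all tested transcripts, so the median and the count of calls point in different directions. The split turned with the scaling, with 54 higher and 33 lower by total counts and 57 and 42 by limma on TPM. With the fragment length covariate it was 7 and 52, on the same side as the 29 and 38. Chosen on the 6 h controls alone, 42% of the list was called.

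Single members nonetheless moved well beyond the spread of their libraries with trichloroethylene at 24 h. Rank 57, of 769 bases, had 5892, 6063 and 5972 TPM in trichloroethylene, against 2536, 2407 and 2253 TPM in controls (1.33 ± 0.09, edgeR adjusted p = 6.2e-11). It also rose with gentamicin (1.24 ± 0.09) and fell with TCDD (-0.73 ± 0.09). Rank 65, of 896 bases, had 4355, 5608 and 4919 TPM in trichloroethylene, against 2138, 2246 and 2034 TPM in controls (1.21 ± 0.10, edgeR adjusted p = 4.6e-10). Both members were steady in controls, and in neither did the groups overlap. The largest falls were in ranks 13, 106 and 3. Rank 13 had 1349, 1018 and 1178 TPM in trichloroethylene, against 6949.6, 5548 and 4036 TPM in controls (edgeR adjusted p = 1.3e-07). Rank 106 had 658, 392 and 587 TPM in trichloroethylene, against 2133, 1833 and 1599.9 TPM in controls (-1.81 ± 0.13, edgeR adjusted p = 6.5e-11).

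**Figure D3:**
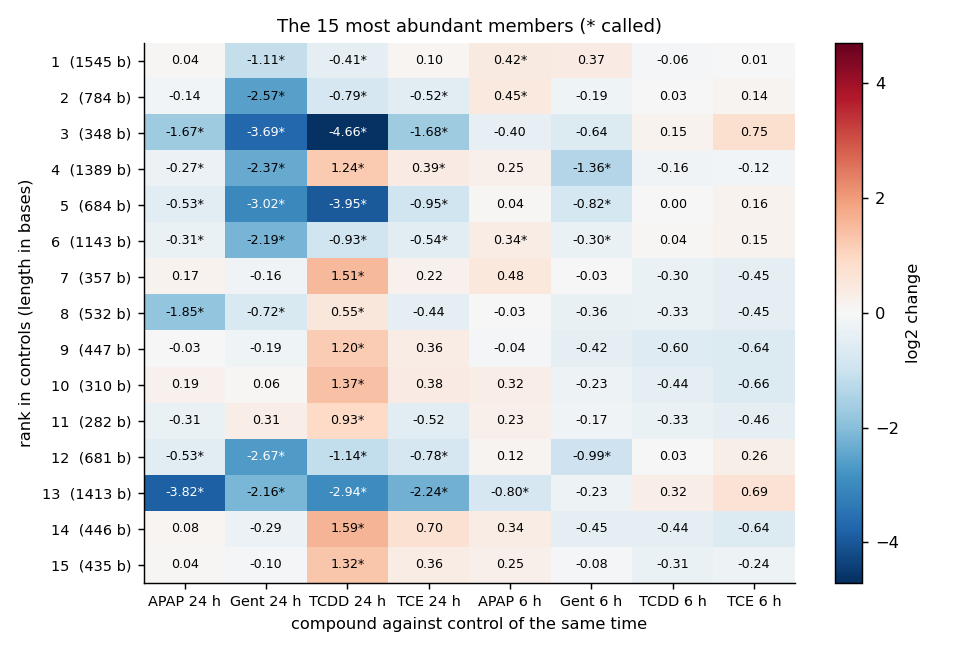
Grid of log2 changes (edgeR) of the 15 most abundant members, down the page by rank with length in bases, for each compound against the control of the same time, 24 h columns left of 6 h columns. Blue is lower and red higher than control, and a star marks an adjusted p under 0.05; rank 5 had -3.95 in TCDD and -3.02 in gentamicin at 24 h, while rank 7 had 1.51 in TCDD. APAP is acetaminophen, Gent gentamicin and TCE trichloroethylene.

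The 2 members with the largest called rises and the 2 with the largest called falls at 24 h are given by identifier. The larger of the 2 rises was in ENSRNOT00000028315, rank 131, of 703 bases. It had 10761, 10420.5 and 9402 TPM in gentamicin, 6161, 6179.7 and 5658 TPM in acetaminophen, 4585, 5947 and 5163 TPM in trichloroethylene and 2551, 2354 and 2580.4 TPM in TCDD, against 1072, 1110.3 and 1077 TPM in controls. Every exposed library at 24 h lay above every control, and the order of the compounds was gentamicin first and TCDD last. The changes were 3.42 ± 0.11 in gentamicin (edgeR adjusted p = 5.7e-18), 2.37 ± 0.11 in acetaminophen (adjusted p = 1.9e-15), 2.29 ± 0.11 in trichloroethylene (adjusted p = 3.8e-14) and 1.70 ± 0.10 in TCDD (adjusted p = 5.4e-13). Acetaminophen and trichloroethylene were not told apart by the test of their difference (0.08 ± 0.10, edgeR adjusted p = 0.51), while gentamicin exceeded acetaminophen (acetaminophen against gentamicin -1.05 ± 0.10, edgeR adjusted p = 1.9e-09). At 6 h it had 3074, 3108 and 3036 TPM in acetaminophen and 2447, 2506 and 2409 TPM in gentamicin, against 1411 and 1435 TPM in controls. Both were called (1.19 ± 0.12 in acetaminophen, edgeR adjusted p = 6.3e-09; 0.68 ± 0.12 in gentamicin, adjusted p = 0.00018), whereas TCDD at 1465, 1523 and 1410.4 TPM and trichloroethylene at 1390.4, 1348 and 1418 TPM were not.

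ENSRNOT00000066885, rank 75, of 625 bases, rose with all 4 compounds at 24 h. It had 8236, 7813 and 8095 TPM in gentamicin, 4747, 4129 and 4478 TPM in TCDD, 3417, 3543 and 2881 TPM in acetaminophen and 3322, 3181 and 3132 TPM in trichloroethylene, against 1407, 1844 and 2159.7 TPM in controls. All exposed libraries lay above the controls, and gentamicin took the transcript to place 3. The changes were 2.35 ± 0.18 in gentamicin (edgeR adjusted p = 5.5e-11), 1.82 ± 0.18 in TCDD (adjusted p = 2.7e-09), 0.78 ± 0.17 in acetaminophen (adjusted p = 0.00042) and 0.85 ± 0.17 in trichloroethylene (adjusted p = 0.00033). Its counts were not whole in any of the 29 libraries, so its reads were divided with at least 1 similar transcript throughout. At 6 h no compound was called, with 1907 to 3032 TPM over the 12 exposed libraries and 2352 and 2429 TPM in controls.

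The deepest fall was in ENSRNOT00000041241, rank 3, of 348 bases. At 24 h it had 184, 227 and 222 TPM in TCDD, 505, 583 and 576 TPM in gentamicin, 2489, 2713 and 2256 TPM in trichloroethylene and 2562, 1593 and 4304 TPM in acetaminophen, against 13319.9, 8358 and 4425 TPM in controls. No exposed library reached the lowest control, although the controls themselves spread over a wide range. In the 5 controls the TPM of rank 3 rose in the order of fragment length, from 2806 TPM at 257 bases to 13319.9 TPM at 289 bases. Fragments in TCDD at 24 h measured 230.3 to 238 bases. The part of fragment length in that fall therefore cannot be told apart from that of the compound. The changes were -4.66 ± 0.37 in TCDD (edgeR adjusted p = 3.8e-10), -3.69 ± 0.35 in gentamicin (adjusted p = 7.6e-09), -1.68 ± 0.32 in trichloroethylene (adjusted p = 0.00022) and -1.67 ± 0.32 in acetaminophen (adjusted p = 0.00011). At 6 h the controls had 2806 and 2955 TPM, well under those at 24 h, and no compound was called. The acetaminophen libraries at 24 h lay on both sides of the 6 h controls, the trichloroethylene libraries just below them, and those of TCDD and gentamicin far below.

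ENSRNOT00000030765, rank 91, of 347 bases, fell to different levels with 3 of the compounds. At 24 h it had 53.8, 52.4 and 71.7 TPM in TCDD, 403, 348 and 496 TPM in acetaminophen, 664, 732 and 600.2 TPM in gentamicin and 1818, 1348 and 1691 TPM in trichloroethylene, against 1977, 2049.7 and 1804 TPM in controls. TCDD, acetaminophen and gentamicin lay below the controls without overlap, and 1 trichloroethylene library lay within the range of the controls. The changes were -4.38 ± 0.11 in TCDD (edgeR adjusted p = 1.1e-19), -2.26 ± 0.09 in acetaminophen (adjusted p = 3.9e-16) and -1.31 ± 0.09 in gentamicin (adjusted p = 4.2e-12). At 6 h acetaminophen had already 475, 496 and 463 TPM, against 1398 and 1372 TPM in controls (-1.37 ± 0.10, edgeR adjusted p = 2.4e-11). TCDD at 6 h had 1570.0, 1659.8 and 1638 TPM and was not called.

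**Figure D4:**
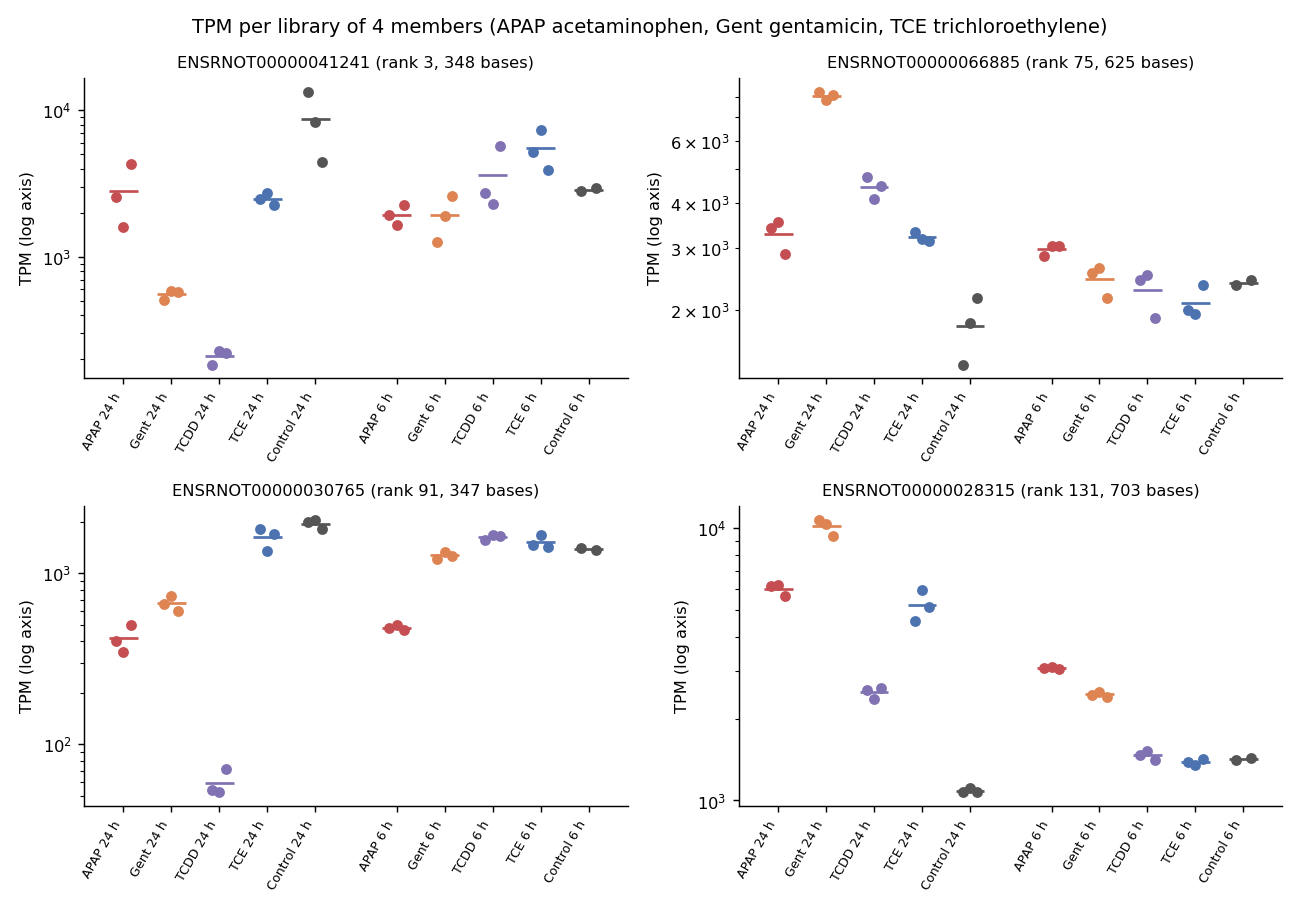
TPM on a log axis of the 4 members given by identifier, in each library at 24 h (left) and 6 h (right), by compound with controls last. Points are libraries and lines are group means; ENSRNOT00000030765 had 52.4 to 71.7 TPM in TCDD at 24 h against 1804 to 2049.7 TPM in controls at 24 h.

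The compounds were also set against each other at 24 h, in 6 pairs. Acetaminophen against TCDD gave 21 members higher and 115 lower, 90.7% called, against 68.7% of all tested transcripts (34.5% higher and 34.2% lower), with a median of -1.22. Gentamicin against TCDD gave 21 higher and 105 lower, 84% called against 68.2% (34.6% and 33.6%), with a median of -1.26. TCDD against trichloroethylene gave 109 higher and 23 lower, 88% called against 59.3% (29.6% in each direction), with a median of 0.86, and with limma 74 higher and 39 lower. The TCDD libraries are shared by these 3 comparisons, so they are not independent. Acetaminophen against gentamicin gave 40 higher and 41 lower, 54% called against 67% (33.1% and 33.8%), with a median of 0.07. By total counts that split was 86 and 32, and with limma 81 and 35, against 11265 and 10929 of the 15990 tested transcripts called. In both the share called was thus larger among the members than among all tested transcripts, unlike the 54% against 67%. Acetaminophen against trichloroethylene gave 16 higher and 57 lower, 48.7% called against 55.3% (28.2% and 27.1%), with a median of -0.33. Gentamicin against trichloroethylene gave 33 higher and 76 lower, 72.7% called against 61.7% (30.2% and 31.5%), with a median of -0.47, by total counts 21 higher and 105 lower and with limma 28 and 102. The order of the pairs by members called thus changed with the method, since with limma this pair had more than TCDD against trichloroethylene. Rank 4, first in TCDD, had a change of -3.61 ± 0.11 for gentamicin against TCDD (edgeR adjusted p = 1.9e-18).

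In the fit over all 29 libraries, each compound had fewer members called at 6 h than at 24 h. Acetaminophen had 13 higher and 15 lower, 18.7% called, against 48.8% of all tested transcripts (24.2% higher and 24.5% lower). More than 2-fold, 1 member was higher and 2 were lower, against 19.9% of all tested transcripts, and the median log2 change was 0.15 over the members and 0.00 over all tested transcripts. Rank 1 rose slightly, with 15333, 14736 and 14861 TPM in acetaminophen, against 11101 and 12262 TPM in controls (0.42 ± 0.13, edgeR adjusted p = 0.0082). Rank 128, at 880.4, 852 and 825 TPM in acetaminophen against 1402 and 1338 TPM in controls, was already lower (-0.62 ± 0.12, edgeR adjusted p = 0.00012). When the fit held only the 2 compared groups, 79 were higher and 25 lower, against 9119 of the 15990 tested transcripts called. In that fit the share called was thus larger among the members than among all tested transcripts. With limma on TPM 11 were higher and 22 lower, against 7199 of the tested transcripts called. Without control replicate 2 fewer members were called, in a fit with a lone control at 6 h. The total over all tested transcripts in that fit is not given.

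Gentamicin at 6 h had 1 member higher, rank 131, and 20 lower, 14% called, against 13.2% of all tested transcripts. Lower values were called in 13.3% of the members and 4.88% of all tested transcripts, and higher values in 8.34% of all. The only change over 2-fold, against 2.75% of all tested transcripts, was in rank 4, which had 2646, 2370.4 and 2676 TPM in gentamicin, against 6109 and 6043 TPM in controls (-1.36 ± 0.11, edgeR adjusted p = 3.1e-09). Ranks 5 and 12 were lower as well. Rank 5 had 2763, 3031 and 3436 TPM in gentamicin, against 4941 and 5117 TPM in controls (-0.82 ± 0.13, edgeR adjusted p = 9.6e-05), and rank 12 had 1427, 1578 and 1931 TPM in gentamicin, against 3012 and 3061 TPM in controls (-0.99 ± 0.14, edgeR adjusted p = 1.1e-05). In all 3 the gentamicin libraries lay below both controls. With either control library left out fewer members were called, in a fit with a lone control at 6 h. Without gentamicin replicate 2 there were 13 called members. Totals over all tested transcripts in these fits are not given.

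TCDD and trichloroethylene at 6 h gave no called member with edgeR, DESeq2 or limma, against 0% of all tested transcripts with edgeR. At an unadjusted p under 0.05 there were 20 members in TCDD, against 1124 of the 15990 tested transcripts, and 34 members in trichloroethylene, against 2070. The median log2 change of the members was -0.27 in TCDD, with 0.03 over all tested transcripts, and -0.25 in trichloroethylene, with 0.01 over all. With 2 control libraries the median SE of a member's change was 0.17, and with only trichloroethylene and control in the fit 19 members, 12.7%, were called in trichloroethylene, against 178 of the 15990.

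Between 24 h and 6 h the effect of each compound was compared by an interaction contrast. For TCDD the effect at 24 h exceeded that at 6 h in 108 members and was below it in 26, 89.3% called, against 56% of all tested transcripts (27.2% higher and 28.8% lower). For trichloroethylene the numbers were 53 and 27, 53.3% called against 33% (16.1% and 17%). For gentamicin they were 16 and 28, 29.3% called against 39.2% (18.7% and 20.4%), and for acetaminophen 2 and 41, 28.7% called against 25.9% (12.5% and 13.4%). In acetaminophen the difference thus lay almost wholly on the lower side. By limma on TPM the split was 84 and 41 for TCDD and 13 and 55 for gentamicin, and with the fragment length covariate that of trichloroethylene turned to 5 and 31. The controls themselves differed between the times, with 14 members higher and 27 lower at 24 h than at 6 h, 27.3% called against 24.9% of all tested transcripts (12.3% and 12.6%), and a median of -0.33, or 21 and 25 by limma. Between the control times, leaving out control replicate 3 at 24 h gave 70 called members, against 19 without replicate 1 at 24 h. Fewer were also called with either control library at 6 h left out, which leaves a lone control at that time. The trichloroethylene interaction had fewer called members without control replicate 2 at 6 h as well. Totals over all tested transcripts in these fits are not given, so whether the members moved more than the rest cannot be said. The rule averaged over both times, so the change of the controls is given as a description.

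By length class the TCDD changes at 24 h differed in size. Members of 500 to under 1000 bases had 54 higher and 7 lower with a median of 1.25, those under 500 bases had 30 higher and 11 lower with a median of 0.93, and those of 1000 bases or more had 24 higher and 12 lower with a median of 0.51. Among other tested transcripts of 500 to under 1000 bases 37.9% were higher and 21.5% lower with a median of 0.26, among those under 500 bases 24.8% and 28.5% with a median of -0.01, and among those of 1000 bases or more 33.4% and 34.9% with a median of 0.00. The members' shares in the same order were 85.7% and 11.1%, 63.8% and 23.4%, and 60% and 30%. Within each length class the members' median lay above that of the rest. With fragment length as a covariate the members' medians were 0.63, 0.20 and 0.13. Fragment length was shorter in TCDD than in controls at 24 h in every library, from 230.3 to 238 bases against 269.9 to 289 bases, and no control library had fragments as short as those of TCDD.

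**Figure D5:**
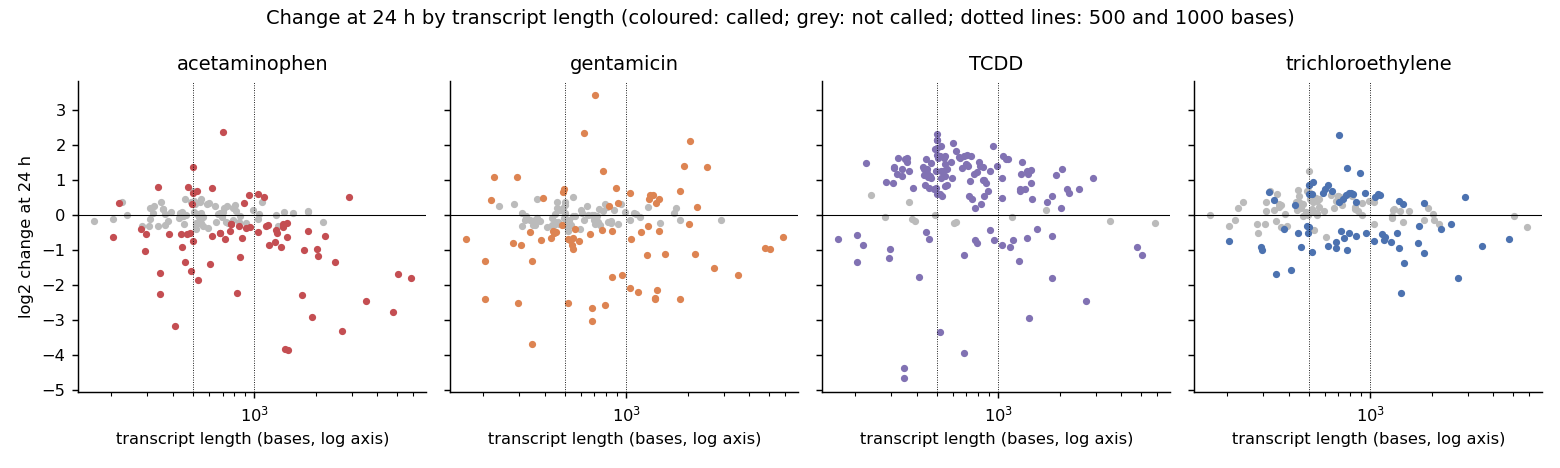
Log2 change (edgeR) of each member against its length in bases (log axis), for each compound against controls at 24 h, coloured where called and grey where not. In TCDD the median was 1.25 for members of 500 to under 1000 bases and 0.51 for those of 1000 bases or more.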

How the data were processed

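RNA was sequenced from 29 libraries in 10 groups given by the labels (compound and time). The authors quantified reads with kallisto 0.43, per the submitters' processing notes. Each deposited table lists 28420 transcripts with their estimated counts and TPM, per the file headers. The sources used here do not give the transcript set or the strand setting. TPM scales each estimated count to effective length, so short transcripts depend on the fragment length the authors' tool assumed. The identifiers were not paired with gene names by the files or the reference table used here.

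The members and lists were chosen with earlier results of these data known. Counts were rounded, filtered with filterByExpr (minimum count 10; 15990 transcripts left), scaled by TMM and fitted with edgeR 4.0.16 in R 4.3.3, with 1 robust quasi-likelihood model over the 10 groups and 19 residual degrees of freedom. P-values were adjusted over all tested transcripts. The steps were tested on simulated counts. Library totals were 8243698 to 11446612, and replicate counts differed by 2.98 to 28.8 chi-square per degree of freedom, so none was a duplicate.

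Described singly were ranks 1 to 10, the ranks at the end of the list and, per compound at 24 h, the 3 largest called rises and the 3 largest called falls; ranks 88 and 127 and the 806-base transcript were picked after their values were seen. Fragment length is the gap between length and effective length in transcripts of at least 1000 bases. Alternatives were DESeq2 1.42.0, limma 3.58.1 on log2(TPM + 1) and log2(TPM + 10), median-of-ratios factors, total counts, TMM without the members, no filter, a 10 CPM filter, a replicate block, only the compared groups, no robust dispersion, a fragment length covariate, other ways of choosing the members, and each library left out. No label gives a batch or date.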

Additional observations from a re-analysis of the deposited data

Results flagged for a closer look

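Ranks 1 to 10, 75, 91 and 131 are listed here, 13 members in all. In each, the effect of at least 1 compound at 24 h differed from its effect at 6 h by the interaction contrast (edgeR, adjusted p under 0.05). Other members are left out, and the list does not hold every extreme. Over all 150 members the lowest difference was -3.24 in acetaminophen and -2.94 in trichloroethylene. The values are log2 changes at 24 h minus those at 6 h, each over 3 exposed libraries per time with 3 controls at 24 h and 2 at 6 h.

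For gentamicin the difference was -1.48 in rank 1, -2.38 in rank 2, -3.05 in rank 3, -1.01 in rank 4, -2.21 in rank 5, -1.89 in rank 6 and -1.15 in rank 91. It was 2.73 in rank 131 and 2.41 in rank 75. For TCDD it was -0.82 in rank 2, -4.81 in rank 3, -3.95 in rank 5, -0.97 in rank 6 and -4.49 in rank 91. On the higher side it was 1.40 in rank 4, 1.80 in rank 7, 0.88 in rank 8, 1.80 in rank 9, 1.81 in rank 10, 1.80 in rank 131 and 2.02 in rank 75.

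For trichloroethylene the difference was -0.67 in rank 2, -2.44 in rank 3, -1.11 in rank 5 and -0.69 in rank 6, and it was 0.51 in rank 4, 1.01 in rank 9, 2.48 in rank 131 and 1.20 in rank 75. For acetaminophen it was -0.59 in rank 2, -0.51 in rank 4, -0.58 in rank 5, -0.64 in rank 6, -1.83 in rank 8 and -0.89 in rank 91, and 1.18 in rank 131. The controls of rank 3 differed between the times themselves, with 13319.9, 8358 and 4425 TPM at 24 h against 2806 and 2955 TPM at 6 h. Control fragments were longer at 24 h too, at 269.9 to 289 bases against 257 to 263 bases at 6 h.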

How the results depend on the processing

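Of 433 alternative values for the percent of members called, 409 stayed within 1.5 times the value reported. The others follow. With only the compared groups in the fit, 69.3% were called in acetaminophen, 28.7% in gentamicin and 12.7% in trichloroethylene at 6 h. With the fragment length covariate it was 26.7% in gentamicin at 6 h, 57.3% in TCDD at 24 h, 14.7% in controls at 24 h against 6 h and 24% in the trichloroethylene interaction. Among the 50 highest members it was 10% in acetaminophen at 6 h and 16% between control times, against 48.8% and 24.9% of all tested transcripts. With members chosen by CPM it was 43.3% in acetaminophen at 6 h, 71.3% in trichloroethylene at 24 h, 52% in the acetaminophen interaction and 46.7% in the gentamicin interaction. The shares of all tested transcripts there were 48.8, 40.7, 25.9 and 39.2%. With limma the gentamicin interaction gave 45.3% at a pseudocount of 1 and 46% at 10, against 6634 and 6683 of the tested transcripts. Leaving out 1 library gave 10.7 to 16.7% in acetaminophen at 6 h, 6 to 11.3% in gentamicin at 6 h, 12 to 46.7% between control times and 32.7 to 60% in the trichloroethylene interaction. At 24 h it gave 88.7 to 92% in TCDD, 43.3 to 49.3% in gentamicin, 40.7 to 47.3% in acetaminophen and 36 to 54.7% in trichloroethylene. A control left out at 6 h leaves a lone library, assumed to vary like the other groups. The shares of all tested transcripts called with a library left out are not given. These ranges therefore cannot show whether the members moved more than the rest.

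The share of TPM held by the 50 highest was 21.9% in TCDD, 11.2% in gentamicin, 18.2% in acetaminophen and 19.5% in trichloroethylene at 24 h, with 20.2% in controls, and 17.6, 17, 20.6 and 18.2% at 6 h, with 19.3% in controls. With members chosen on the 24 h controls the share at 6 h was 37.9% in acetaminophen and 36.4% in controls; chosen on the 6 h controls it was 36.8% in controls. Of 987 values for single called members 945 kept their direction and call, 39 lost the call and 3 reversed: rank 8 in TCDD at 24 h, 0.55 as reported, was -0.00 with limma at either pseudocount and -0.26 with the fragment length covariate. Ranks 9 and 10 in TCDD at 24 h lost their call with that covariate. The cause was not tested.

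Deviations of same-numbered replicates had correlations of -0.212 to 0.32, with a median of 0.00306 over 126 pairs. Differently numbered pairs were not set beside them, so these values cannot show whether the numbers pair the samples. With the number as a replicate block 91.3% of members were called in TCDD, 48.7% in gentamicin, 46.7% in acetaminophen and 44% in trichloroethylene at 24 h, and 18.7% in acetaminophen and 13.3% in gentamicin at 6 h.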
